A study of Mus musculus with 12 samples.

Results

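The receptors through which fibroblasts receive PDGF, FGF, EGF-family and HGF signals, and the PDGF ligands these cells make, were followed in a mouse fibroblast line and in 3 clones of it labelled AEBP1 KO. The 9 genes were chosen by symbol, from Ensembl identifiers matched to mouse build GRCm38, out of 48795 genes in the deposited tables. They are the PDGF receptors Pdgfra and Pdgfrb, the PDGF ligands Pdgfa, Pdgfb and Pdgfc, the FGF receptors Fgfr1 and Fgfr2, the EGF receptor Egfr and the HGF receptor Met. The knockout libraries were NIH3T3 fibroblasts, an immortalised mouse embryo line, with the genotype AEBP1 KO, as the clones F5, G5 and H7, each at passages 7, 8 and 9. They were set against the WT Parental line at passages 6, 7 and 8, which gave 12 libraries of ribosome-depleted total RNA in 4 groups of 3. AEBP1 is a secreted collagen-binding protein, and the series title places it in cancer-associated fibroblasts. All lines grew in medium with fetal bovine serum, which itself supplies growth factors. Each knockout line is 1 clone while the Parental line is not a clone, so the effects of cloning and of the knockout cannot be told apart. Whether each passage was its own culture is not said in the labels, and p-values then speak of the spread among these libraries alone.

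All 4 receptor families are receptor tyrosine kinases. A ligand brings receptor chains together in pairs, the chains phosphorylate each other, and adaptors bound to the phosphorylated tails switch on the RAS to ERK and PI3K to AKT routes. PDGF is the classical mitogen of fibroblasts; PDGF-A and PDGF-C act mainly on the alpha receptor, and PDGF-B on both receptors. FGFs need heparan sulfate on the cell surface to bind their receptors firmly, EGF-family ligands are shed from the membrane by proteases, and HGF, itself a product of fibroblasts, acts on MET.

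Library totals lay between 22088714 and 31329755 counts. Aebp1 averaged 193 ± 19.9 counts per 1000000 counts (CPM) in F5, 128 ± 8.46 CPM in G5 and 147 ± 14.4 CPM in H7, against 553 ± 76.6 in the Parental line (SD, n = 3 each). Transcripts of the targeted gene therefore remained in every clone, and no source used here gives the edited position. All 15 fibroblast markers examined had at least 1 CPM in every group, and their summed level per library ran from 10263 to 13302 transcripts per 1000000 (TPM) in the clones and from 12230 to 13540 TPM in the Parental line. Within that list, 9 of 15 markers were called lower on average over the clones, beside 10.5% of all tested genes, and the part of this in the results below was not tested. Of the other lists, 0 of 8 epithelial markers had a mean of at least 1 CPM over the 12 libraries (summed level 0.806 to 1.81 TPM in the clones and 0.752 to 1.31 TPM in the Parental line), and 0 of 7 endothelial ones did (0.334 to 1.24 TPM in the clones and 0.305 to 0.477 TPM in the Parental line). By group, the epithelial marker Krt14 averaged 1.3 ± 0.242 CPM in G5. Leukocyte markers had such a mean over the 12 libraries for 2 of 8, Cd68 and Cd14 (7.71 to 10.8 TPM in the clones and 6.77 to 8.46 TPM in the Parental line), and pericyte and smooth muscle markers for 3 of 8, Cspg4, Mcam and Notch3 (33.1 to 55 TPM in the clones and 24.8 to 47 TPM in the Parental line). The defining markers Epcam and Cldn4 of epithelium, Kdr and Tie1 of endothelium, Adgre1 and Cd3e of leukocytes, and Kcnj8 of pericytes were at 0 counts in all 4 groups. The epithelial cadherin Cdh1 was called higher in H7, at 0.739 CPM against 0.0149 CPM in the Parental line (adjusted p = 0.00183, edgeR).

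Compared per length, in TPM, the same genes led in every group by the order of group means. Pdgfra and Fgfr1 took the first 2 places of the 9, with group means of 61.4 to 101 TPM for Pdgfra and 80.8 to 97.2 TPM for Fgfr1 in the clones, against 158 and 135 TPM in the Parental line. Pdgfc came next in each group, at 57.7 TPM in F5, 61.7 in G5 and 61.3 in H7, against 56 TPM in the Parental line. In H7 the means of Pdgfra (61.4 ± 20 TPM) and Pdgfc (61.3 ± 2.34 TPM) did not differ beyond their spread. At passage 7 Pdgfc exceeded Pdgfra in each clone, with 59.6 against 46.1 TPM in F5, 64.8 against 49.5 in G5 and 61.7 against 39.7 in H7. Met, Fgfr2 and Pdgfrb followed at means between 32.8 and 55.3 TPM in the clones and between 48.3 and 48.9 TPM in the Parental line, and these 3 did not differ from each other there beyond their spread. Pdgfa was the seventh and Egfr the eighth in each group, though in F5 Pdgfa (34.7 ± 7.3 TPM) lay within its spread of Pdgfrb (35.7 ± 0.965 TPM). Pdgfb came last and did not pass the filter on low counts: it had 0 counts in F5, 2 in G5 and 7 in H7, against 0 in the Parental line, where 3 counts would correspond to 0.0426 CPM. The other 8 genes passed and were among 14704 genes tested.

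Set against the Parental line, the mean of the 3 clones had 4 of the 8 tested genes called lower and none called higher, while 19% of all tested genes were called in either direction and 10.5% were called lower (edgeR's quasi-likelihood test, adjusted p under 0.05). The 4 were Egfr, Fgfr1, Fgfr2 and Pdgfrb, all of them receptors. In single clones 2 genes each were called, all lower: Egfr and Fgfr1 in F5 (where 14.3% of all genes were called and 7.37% called lower) and in G5 (13.1% and 6.56%), and Egfr and Fgfr2 in H7 (19.6% and 9.92%). Egfr was thus the member called lower in each clone, as were 2.14% of all tested genes; 4.68% were called in 1 direction in all clones. With counts summed per line, so that the 3 clones are the units and the single Parental line has no replicate of its own, edgeR called 0 members and 0 of all tested genes; 3 members and 1735 genes had an unadjusted p under 0.05, and Egfr had an adjusted p of 0.299. These comparisons share the Parental libraries. The median log2 fold change of the 8 genes was -0.27, against -0.02 over all tested genes.

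**Figure D1:**
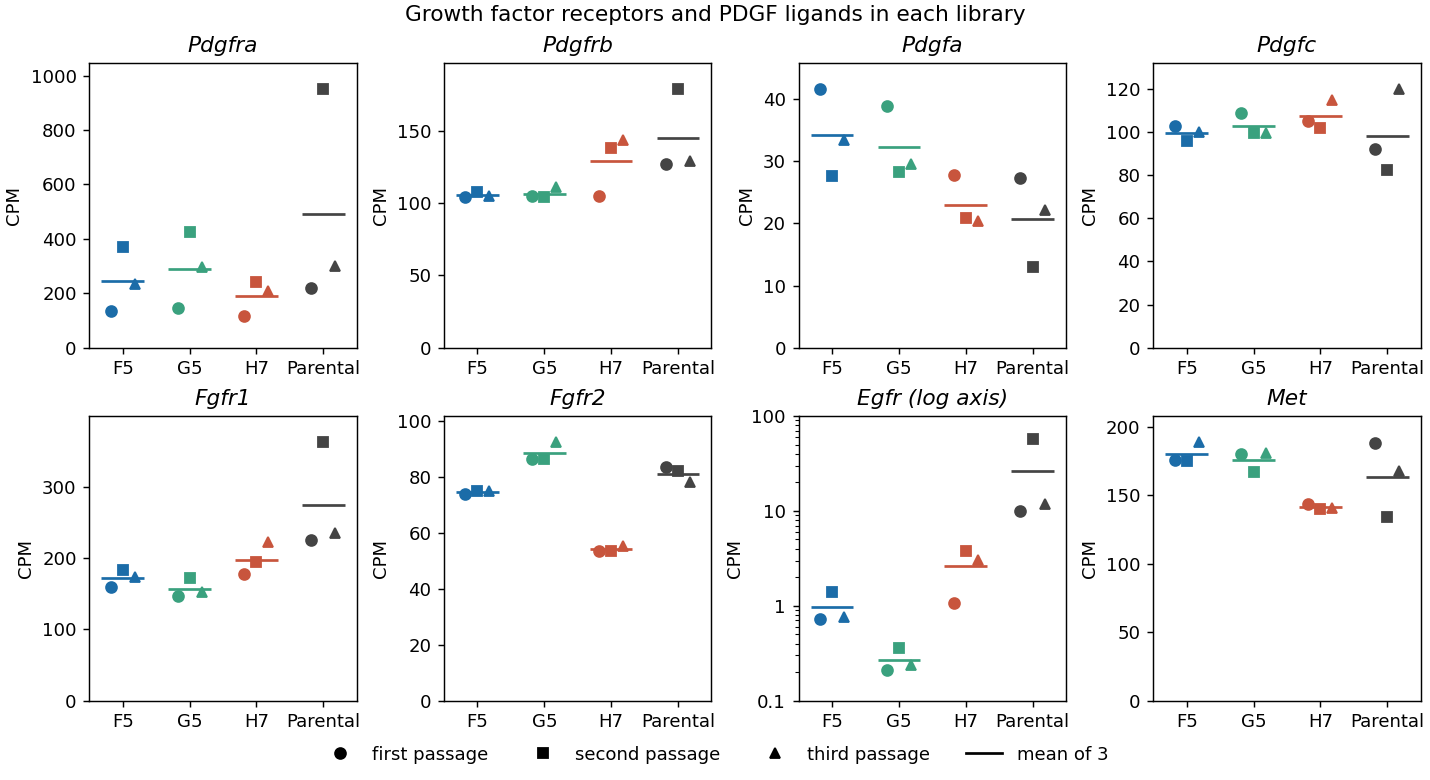
CPM (vertical axis, linear from 0 except for Egfr, which has a log axis) of the 8 tested genes in each library of clones F5, G5 and H7 and the Parental line; circles, squares and triangles are the first, the second and the third passage of a line and bars are means of 3. Egfr lay at 0.212 to 3.79 CPM in the clones and at 9.97 to 57.7 CPM in the Parental line, and Pdgfra reached 951 CPM in the Parental library of passage 7.

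Egfr encodes the receptor for EGF, amphiregulin, TGF-alpha and related ligands, and it showed the widest difference of the 8 tested genes. It lies on chromosome 11 at 16752203 to 16918158 on the plus strand of GRCm38. F5 had 0.728, 1.41 and 0.77 CPM at passages 7, 8 and 9, G5 had 0.212, 0.363 and 0.24, and H7 had 1.07, 3.79 and 3.03, against 9.97, 57.7 and 11.8 CPM in the Parental line at passages 6, 7 and 8. Every clone library lay below every Parental library. The counts behind these values were 84 over the 3 F5 libraries, 20 in G5 and 207 in H7, against 1955 in the Parental line, so the G5 level rests on few reads. In bulk libraries, less of a transcript in each cell and fewer cells with it cannot be told apart.

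The log2 fold change of Egfr was -4.90 ± 0.50 (SE) in the mean of the clones (adjusted p = 0.000117, edgeR), or 3.36% of the Parental level. It was -4.75 ± 0.74 in F5 (adjusted p = 0.00193), -6.61 ± 0.88 in G5 (0.000788) and -3.33 ± 0.67 in H7 (0.00537). Without the Parental library of passage 7 the value for the mean of the clones was -3.61 (adjusted p = 7.16e-05), and without the second passage of every line, an alternative chosen after seeing the data, it was -3.94 (0.000329). The clones also differed among themselves. G5 against H7 gave a log2 fold change of -3.29 ± 0.93 (adjusted p = 0.0319, edgeR; 17.4% of all genes called in that comparison), all 3 G5 libraries lying below all 3 H7 libraries. This call was lost without 5 of the 6 libraries of the pair, at adjusted p up to 0.107, and with limma it was -0.55 on log2(TPM + 1) (adjusted p = 0.489) and -1.79 on log2(TPM + 0.1) (0.0797). F5 against H7 gave -1.42 for Egfr (adjusted p = 0.228, edgeR), and with the place in the order of passages as a term it was -1.47 (0.0228) and called.

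The region around Egfr was examined because the targeted gene lies on the same chromosome, 10.9 Mb away. Of 30 tested genes between Aebp1 and Egfr, 1 was called higher and 1 lower on average over the clones, with a median log2 fold change of 0.03. Among the 5 tested genes on each side of Egfr, 1 rose and 0 fell. The gene that rose was Plek, which encodes pleckstrin, a protein best known from platelets and leukocytes, with a log2 fold change of 2.94 (adjusted p = 0.0167); by clone it was called in H7 alone (4.81, adjusted p = 0.000834), with 2.37 in F5 (0.0834) and 1.65 in G5 (0.273). In single clones Grb10, an adaptor that binds receptor kinases, was called higher in F5 (0.21, adjusted p = 0.045) and G5 (0.27, 0.0152), Gm12002 higher in G5 (2.79, 0.0125) and Sec61g lower in F5 (-0.36, 0.0333). Eldr, a noncoding gene that starts downstream of Egfr, had a log2 fold change of -0.32 (adjusted p = 0.241). The antisense transcript Egfros overlaps Egfr and had 2 to 51 counts per library, or up to 55% of the Egfr count in the same library. No source used here says whether the counting used strand, so reads of the pair may not have been told apart. Egfros had a log2 fold change of -1.65 ± 0.65 (adjusted p = 0.104).

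Promoter windows from RefSeq (GRCm38.p6, 250 bases before to 50 after an annotated start) are shown for Egfr, Pdgfra and Met. Egfr fell the most of the tested members, and Pdgfra moved with Egfr between passages as described below. The mean of Met differed little between clones and Parental line. The windows of Pdgfra and Met do not hold the first base of the RefSeq gene span, 75151322 and 17463349. Each window is written 5′ to 3′ on the plus strand. Capitals mark each GC box, searched as GGGCGG on both strands and so read also as CCGCCC.
Egfr, chr11:16751953-16752252: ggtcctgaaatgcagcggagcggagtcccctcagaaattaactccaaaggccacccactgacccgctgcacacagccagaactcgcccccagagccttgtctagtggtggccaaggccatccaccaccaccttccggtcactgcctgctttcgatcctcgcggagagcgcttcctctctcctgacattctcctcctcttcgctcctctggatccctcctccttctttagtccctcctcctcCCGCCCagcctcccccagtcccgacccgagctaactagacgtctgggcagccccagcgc
Pdgfra, chr5:75152001-75152300: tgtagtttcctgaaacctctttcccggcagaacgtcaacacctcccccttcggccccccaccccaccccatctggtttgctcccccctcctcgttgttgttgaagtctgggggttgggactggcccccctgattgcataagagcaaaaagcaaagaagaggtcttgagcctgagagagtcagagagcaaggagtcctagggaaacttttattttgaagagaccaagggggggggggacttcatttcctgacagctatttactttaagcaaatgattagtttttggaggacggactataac
Met, chr6:17463707-17464006: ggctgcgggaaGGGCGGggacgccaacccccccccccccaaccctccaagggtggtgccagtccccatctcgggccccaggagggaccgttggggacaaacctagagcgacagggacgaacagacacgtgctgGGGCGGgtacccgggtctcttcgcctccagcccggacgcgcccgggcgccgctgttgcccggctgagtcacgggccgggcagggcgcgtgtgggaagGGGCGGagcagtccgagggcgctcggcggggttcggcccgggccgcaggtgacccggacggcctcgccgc
The Egfr window held 1 GC box at 62.3% G and C, the Met window held 3 at 75.7%, and the Pdgfra window held 0 at 51%. A GC box was present in 35.7% of all 32851 promoter windows of this length. The TATA box letters TATAAA, found in 13.6% of windows on either strand, were absent from all 3. The AP-1 letters TGANTCA, present in 7.81% of windows, were found 1 time, in Met. These matches describe letters and say nothing of binding.

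Fgfr1, the main FGF receptor of mesenchymal cells, was lower in the clones by a smaller amount. F5 had 160, 184 and 174 CPM, G5 had 147, 172 and 152, and H7 had 178, 194 and 222, against 226, 363 and 235 CPM in the Parental line. All 9 clone libraries lay below all 3 Parental libraries, the highest H7 library by a narrow margin. On the log2 scale the change was -0.65 ± 0.13 in the mean of the clones (adjusted p = 0.00537, edgeR). It was -0.67 in F5 (adjusted p = 0.0201), -0.80 in G5 (0.00855) and -0.47 in H7 (0.0647), the last not called; with the place in the order of passages as a term H7 was called, at -0.45 (0.0151). Without the Parental library of passage 7 the value was -0.40 for the mean of the clones (adjusted p = 0.0113) and -0.22 for H7 (0.168). Without the second passages H7 had -0.20 (adjusted p = 0.22). H7 was also called by DESeq2 (0.033) and without the Parental library of passage 6 (0.0297) or of passage 8 (0.0483). With only the 6 libraries compared, Fgfr1 was not called in F5 (adjusted p = 0.0972) or in G5 (0.0672). In F5 the call was lost without the F5 library of passage 7 (0.0774) or of passage 9 (0.064).

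Fgfr2 encodes the receptor that in its epithelial splice form binds FGF7 and FGF10, and its level separated the clones. H7 had 53.5, 53.6 and 55.2 CPM, F5 had 73.7, 75.1 and 74.9, and G5 had 86.4, 86.3 and 92.5, against 83.4, 82 and 78.1 CPM in the Parental line. The 4 lines occupied separate ranges, with H7 lowest and G5 highest. In H7 the log2 fold change was -0.59 ± 0.06 (adjusted p = 6.1e-05, edgeR), and it was -0.12 in F5 (0.171) and 0.12 in G5 (0.175). The differences between clones were tested directly: F5 exceeded H7 by 0.46 ± 0.06 on the log2 scale (adjusted p = 0.000262; 17.9% of all genes called), and G5 exceeded H7 by 0.71 ± 0.06 (adjusted p = 1.23e-05). F5 against G5 gave -0.24 ± 0.06 (adjusted p = 0.182, where 0.258% of all genes, 38, were called, and 21 with the passage number as a block), and DESeq2 called it (0.00188); edgeR called 0 members in that pair, 1 of them, Fgfr2, having an unadjusted p under 0.05. The mean of the clones, -0.19 ± 0.04 (adjusted p = 0.0118), therefore combined 1 clone well below the Parental line with 2 near it. This mean was not called without the Parental library of passage 6 (0.0507), without the filter on low counts (0.0644) or without the second passages (0.062). With the 9 knockout libraries as 1 group it was -0.17 (adjusted p = 0.579). The gene lies on chromosome 7, where the median log2 fold change of the 1127 tested genes was -0.03 in H7 and -0.20 in F5. Its GENCODE span of 2960900 bases overlaps 69 other genes, against a RefSeq span of 104358 bases.

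The PDGF receptors are the docking points of the classical fibroblast mitogen. Pdgfra had 135, 370 and 233 CPM in F5, 147, 424 and 298 in G5, and 117, 242 and 208 in H7, against 221, 951 and 299 CPM in the Parental line. The groups overlapped, and the largest value of each line was that of its second passage. The log2 fold change in the mean of the clones was -1.04 ± 0.44 (adjusted p = 0.123, edgeR; 95% interval -2.01 to -0.08), and without the Parental library of passage 7 it was -0.13 (0.866). With the place in the order of passages as a term in the fit, the value was -0.89 (adjusted p = 0.0022) and the gene was called.

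Pdgfrb, the receptor for PDGF-B, had 104, 108 and 105 CPM in F5, 105, 104 and 111 in G5, and 105, 138 and 144 in H7, against 127, 179 and 129 CPM in the Parental line. All F5 and G5 libraries lay below the Parental libraries, while H7 overlapped them. Its change was -0.35 ± 0.11 on the log2 scale in the mean of the clones, with an adjusted p of 0.0494 (edgeR) close to the threshold. The call was lost in 9 of the 12 fits that left out 1 library, at -0.17 (adjusted p = 0.255) without the Parental library of passage 7. With the place in the order of passages as a term, Pdgfrb was called in F5 (-0.44, adjusted p = 0.0157) and in G5 (-0.43, 0.02). In H7 the log2 fold change was -0.17 (adjusted p = 0.455), and the median of chromosome 18, which carries Pdgfrb, was 0.25 in that clone. As a ratio of TPM, Pdgfra stood at 1.12 to 4.06 times Pdgfrb in the clone libraries and at 1.73 to 4.99 times Pdgfrb in the Parental libraries.

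Met, the HGF receptor, differed little in the mean of the clones and more between clones. It had 176, 175 and 189 CPM in F5, 180, 167 and 181 in G5, and 144, 140 and 141 in H7, against 188, 134 and 168 CPM in the Parental line. The Parental range covered that of H7 and most of that of F5 and G5. The log2 fold change in the mean of the clones was 0.02 with a 95% interval of -0.17 to 0.20 (adjusted p = 0.916, edgeR). Between clones, F5 exceeded H7 by 0.34 ± 0.10 (adjusted p = 0.0388) and G5 exceeded H7 by 0.31 ± 0.10 (0.0586), with all libraries separated in both pairs. With the passage number as a block, G5 against H7 was called (0.31, adjusted p = 0.0463). The first of these calls was lost in 10 of the 12 fits that left out 1 library, at adjusted p up to 0.122. Met lies on chromosome 6, where the median difference between F5 and H7 over the 782 tested genes was 0.28, near the value of Met itself. H7 against the Parental line gave -0.20 (adjusted p = 0.205) beside a chromosome median of -0.22, and -0.32 (0.00785) without the Parental library of passage 7.

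**Figure D2:**
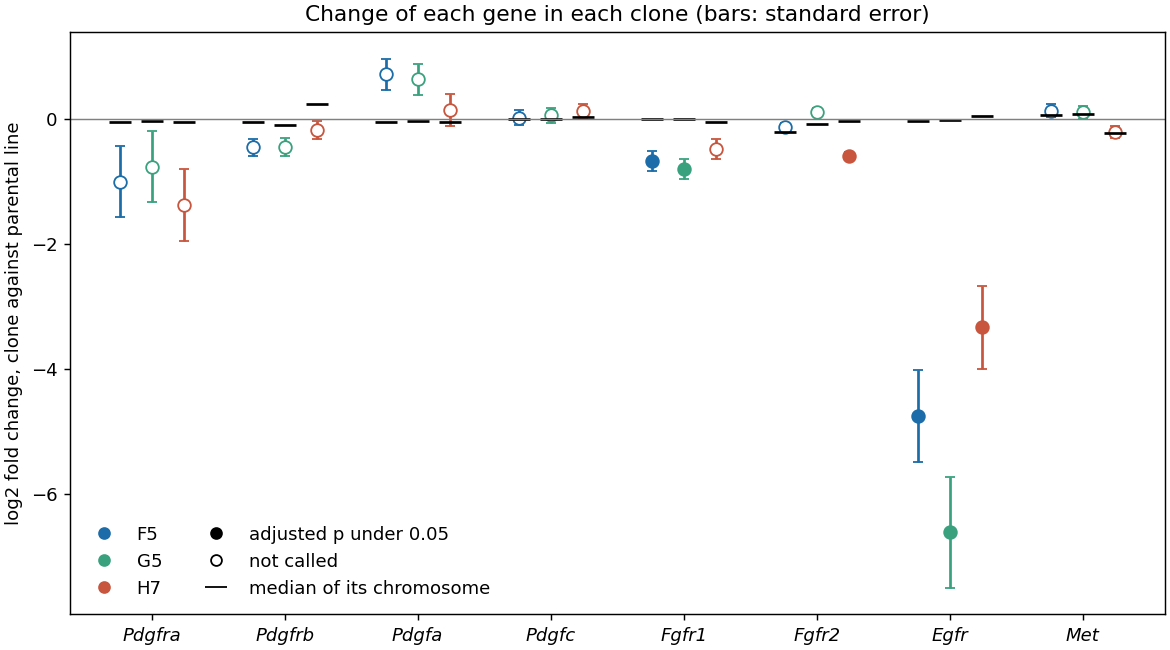
Log2 fold change against the Parental line (vertical axis) of the 8 tested genes in clones F5, G5 and H7; filled points had an adjusted p under 0.05, bars are standard errors and black dashes are the median of all tested genes on the same chromosome. Egfr stands apart at -3.33 to -6.61, and the open points of Met in H7 and Fgfr2 in F5 lie near their chromosome medians.

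Among the ligands, Pdgfa encodes the A chain, which acts on the alpha receptor. It had 41.6, 27.6 and 33.4 CPM in F5, 38.9, 28.2 and 29.6 in G5, and 27.8, 20.8 and 20.4 in H7, against 27.3, 12.9 and 22.1 CPM in the Parental line. All F5 and G5 libraries lay above the Parental libraries and H7 overlapped them. Its log2 fold change was 0.50 ± 0.21 in the mean of the clones (adjusted p = 0.124, edgeR), 0.72 in F5 (0.0808) and 0.64 in G5 (0.123). It was called at 0.76 (adjusted p = 0.0429) without the Parental library of passage 6 and at 0.53 (0.00346) with the place in the order of passages in the fit. Without the Parental library of passage 7 it was 0.25 (adjusted p = 0.375), and -0.10 in H7 (0.779); without the second passages it was 0.35 (0.193). The antisense gene 6330403L08Rik overlaps Pdgfa and had 266 to 480 counts per library, up to 121% of the Pdgfa count. The antisense gene itself had a log2 fold change of -0.02 (adjusted p = 0.93).

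Pdgfc, whose product is secreted latent and needs a protease to activate it, varied little. It had 103, 95.8 and 100 CPM in F5, 109, 99.4 and 99.4 in G5, and 105, 102 and 115 in H7, against 92, 82.3 and 120 CPM in the Parental line. The Parental range held every clone library. The log2 fold change in the mean of the clones was 0.07 with a 95% interval of -0.14 to 0.28 (adjusted p = 0.653, edgeR), and it was 0.24 (0.0483) without the Parental library of passage 8. In TPM, Pdgfc exceeded Pdgfa by 1.4 to 3.32 times in the clone libraries and by 1.89 to 3.63 times in the Parental libraries.

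The second passage of each line stood apart for some of these genes, a comparison chosen after seeing the data. Passage numbers differ by 1 between clones and Parental line, so the second passage is 8 in each clone and 7 in the Parental line. The labels used here give no date or batch for the libraries. Pdgfra was highest in the second passage in 4 of 4 lines, with a log2 difference from the other passages of its line of 1.17 ± 0.15 (adjusted p = 0.000745, edgeR with group kept in the fit). Egfr was also highest there in 4 of 4 lines, at 1.67 ± 0.27 (adjusted p = 0.00182). Pdgfa was lowest there in 3 of 4 lines, at -0.44 ± 0.10 (adjusted p = 0.0068), a call lost without the F5 libraries (0.0509). In the same comparison 32.1% of all tested genes were called, so 3 of 8 is near that share. Fgfr1 had 0.25 (adjusted p = 0.0535), Met -0.15 (0.093) and Pdgfc -0.16 (0.122), and Met and Pdgfc were lowest in the second passage in 4 of 4 lines. Without the Parental line the difference was 0.91 for Pdgfra and 0.93 for Egfr, both still called.

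**Figure D3:**
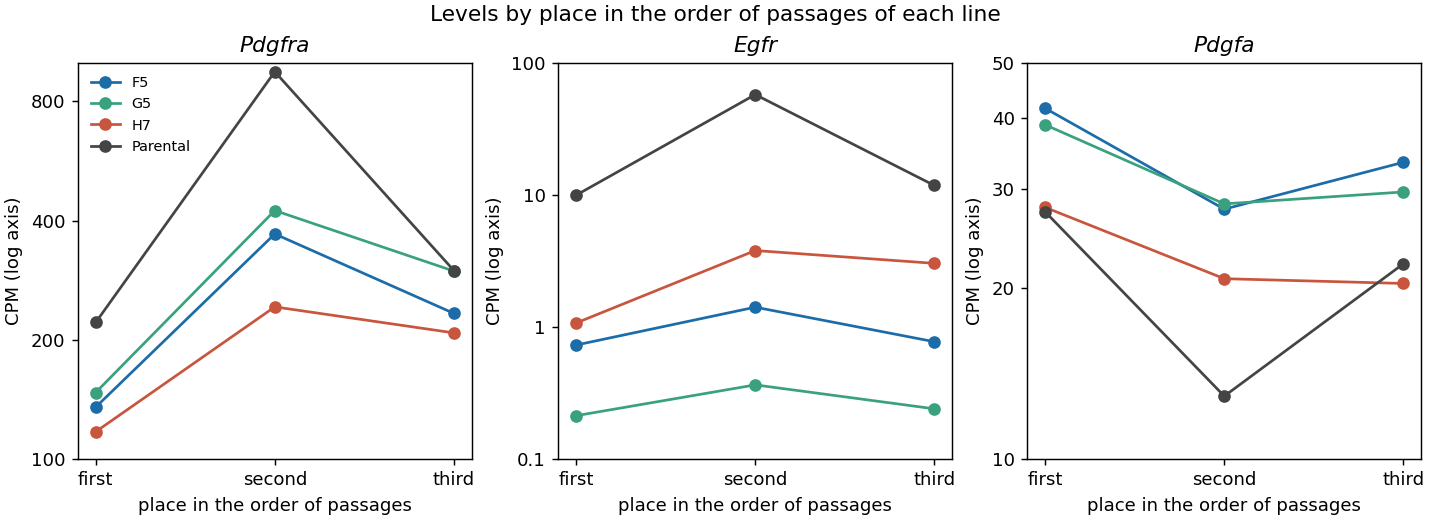
CPM (log axis) of Pdgfra, Egfr and Pdgfa against the place of a library in the order of passages of its line, with 1 line each for F5, G5, H7 and Parental. Pdgfra and Egfr peak in the second passage of all 4 lines, and Pdgfa is lowest there in F5, G5 and the Parental line.

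Likeness of pattern was measured as the root mean square difference of centred log2 CPM over the 12 libraries, among 11113 genes. For Pdgfra the nearest genes were Fam135b at 0.17, Agap2 at 0.254 and Mrvi1 at 0.264. Fam135b averaged 15.2 CPM in F5, 16.2 CPM in G5 and 12.4 CPM in H7, against 33.7 CPM in the Parental line. For Egfr the nearest were Dapk1 at 0.656, Islr at 0.79 and Mycn at 0.825, and Dapk1 averaged 0.456 CPM in F5, 0.313 CPM in G5 and 0.936 CPM in H7, against 15 CPM in the Parental line. These are descriptions across libraries that share lines and passages. The other members varied too little between groups for the measure to be applied.

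Around these receptors, 7 lists of genes were read by role. Of the 11 other receptors of the same families and their near relatives, 5 were tested. On average over the clones 2 fell and 0 rose, with a median of -0.23, beside 10.5% of all tested genes called lower. Erbb2, the partner with which EGFR forms mixed pairs, averaged 58.9 ± 4.85 CPM in F5, 59.9 ± 3.93 CPM in G5 and 45.6 ± 1.58 CPM in H7, against 71.6 ± 4.25 CPM in the Parental line, a log2 fold change of -0.40 ± 0.06 (adjusted p = 0.00167, edgeR). Fgfrl1, an FGF-binding receptor without a kinase domain, was at -0.33 in each clone and in their mean (adjusted p = 0.00599). Fgfr3 and Fgfr4 averaged 0.07 and 0.03 CPM over the libraries, and Fgfr3 and Fgfr4 did not pass the filter.

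Of 23 other ligands 9 were tested, 2 rose and 1 fell, beside 19% of all tested genes called in either direction. Hgf, the ligand of MET, averaged 55.9 ± 7.8 CPM in F5, 43.4 ± 9.73 CPM in G5 and 53.1 ± 5.59 CPM in H7, against 85.3 ± 11.4 CPM in the Parental line, and every clone library lay below every Parental library. Its log2 fold change was -0.76 ± 0.13 in the mean of the clones (adjusted p = 0.00251, edgeR), and it was called lower in each clone. Fgf10, a mesenchymal FGF that acts on FGFR2 in epithelium, rose with a log2 fold change of 1.20 ± 0.21 (adjusted p = 0.00304), and it was called in each clone. Nrg1, which encodes neuregulin, a ligand of ERBB3 and ERBB4, rose by 0.70 ± 0.15 in the mean (0.00766) and was not called in H7 (0.40, adjusted p = 0.141). Tgfa and Areg, ligands of EGFR, had 0 and 1 counts over all libraries, while Hbegf (log2 fold change 0.43, adjusted p = 0.31) and Ereg (-0.16, 0.775) each averaged 29.8 CPM.

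Of 16 genes for processing ligands 11 were tested, 3 fell and 0 rose, beside 10.5% of all tested genes called lower. Furin, a convertase that cuts growth factor precursors, fell by 0.46 (adjusted p = 0.000678, edgeR) and was called lower in F5 and G5. Pcsk7, a convertase of the same family, had -0.32 (0.00923). Plat, tissue plasminogen activator, which can activate PDGF-C, had -0.63 (0.0332), and without the Parental library of passage 7 it had -0.25 (0.204).

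Coreceptors and enzymes of heparan sulfate held the most calls in number of the 7 lists, which differ in size. Of these 24 genes 21 were tested, 9 fell and 2 rose, with a median of -0.23, beside 19% of all tested genes called and 10.5% called lower. Gpc6, a glypican, averaged 24.3 CPM in F5, 27.2 CPM in G5 and 0.0793 CPM in H7, against 35.7 CPM in the Parental line. Hs6st2, which adds sulfate groups to heparan sulfate, averaged 18 CPM in H7, against 53.2 CPM in the Parental line (log2 fold change -1.56 ± 0.09), and had -0.03 in F5 (adjusted p = 0.851) and 0.17 in G5 (0.229). Sulf1, a sulfatase that removes such groups, averaged 0.227 CPM in F5 and 1.32 CPM in G5 and had 0 counts in H7, where 3 counts would be 0.0386 CPM, against 3.67 CPM in the Parental line. Sulf2, the other sulfatase of the list, averaged 87.6 CPM in F5, 65.8 CPM in G5 and 19.1 CPM in H7, against 39.1 CPM in the Parental line. It was called higher in F5 (1.16, adjusted p = 0.000858, edgeR) and in G5 (0.75, 0.00902) and lower in H7 (-1.03, 0.0011). Sdc2, a syndecan, rose by 0.39 ± 0.06 (adjusted p = 0.00149), and Flrt2, a membrane protein known to bind FGF receptors, rose by 0.60 ± 0.14 (0.0123). By clone Sdc2 had 0.73 in H7 (9.03e-05), 0.24 in F5 (0.0479) and 0.20 in G5 (0.094, not called). With the 9 knockout libraries as 1 group Sdc2 was not called (0.11), nor were Gpc6 (0.582), Hs6st2 (0.692) and Sulf1 (0.0677). Of the genes named from the other lists, Erbb2, Plat, Src, Fyn, Grb2, Akt2, Ptprj and Ier3 also lost the call in that fit. Flrt2 was not called in H7 (0.34, 0.176).

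All 33 signal transducers were tested, 6 rose and 3 fell, with a median of 0.06, so 9 of 33 were called beside 19% of all genes. Map2k1, the kinase upstream of ERK, rose by 0.45 (adjusted p = 0.00262, edgeR) and was called in each clone. The kinases Src and Fyn rose by 0.34 (0.00295) and 0.53 (0.00934), Src with calls in F5 and G5 and Fyn with a call in H7. Grb2, the adaptor that links receptors to RAS, fell by 0.40 (0.0019) and was not called in H7 (-0.17, 0.176). Frs2, the docking protein of FGF receptors, fell by 0.27 (0.00834) and Akt2, a kinase of the PI3K route, by 0.17 (0.0326), the last a call lost without most single libraries.

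Of 24 attenuators of receptor signalling 23 were tested, 6 fell and 0 rose, with a median of -0.20, beside 10.5% of all tested genes called lower. Socs3 fell by 0.92 ± 0.08 (adjusted p = 3.63e-05, edgeR) and Ptpn1, a phosphatase of receptor kinases, by 0.38 ± 0.06 (0.00135), both called in each clone. Ptprj, a receptor-type phosphatase, went in opposite directions: it averaged 0.702 CPM in F5, 0.0888 CPM in G5 and 5.85 CPM in H7, against 2.65 CPM in the Parental line, with calls lower in F5 and G5 and higher in H7.

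Transcripts that ERK signalling is known to induce were mixed: of 19 tested, 5 fell and 2 rose, with a median of -0.18, beside 19% of all tested genes called. Fos fell by 1.27 ± 0.23 (adjusted p = 0.00338, edgeR), Ier3 by 0.64 (0.00607) and Phlda1 by 0.75 (0.0177). Fos and Ier3 were called in F5 and G5 and Phlda1 in F5, while in H7 Fos had -0.59 (adjusted p = 0.201), Ier3 -0.30 (0.243) and Phlda1 -0.65 (0.0807). Dusp4, a phosphatase induced by ERK, rose by 1.82 ± 0.47 (0.0199) and Myc by 0.72 ± 0.20 (0.0308), and all clone libraries of both lay above the Parental libraries. Dusp4 and Myc missed the threshold without the Parental library of passage 8 (0.0543 and 0.0519), Myc also without the passage 7 library of F5 (0.0505) or of H7 (0.0526). Phlda1 missed it without the Parental library of passage 6 (0.0766) or of passage 8 (0.0799).

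**Figure D4:**
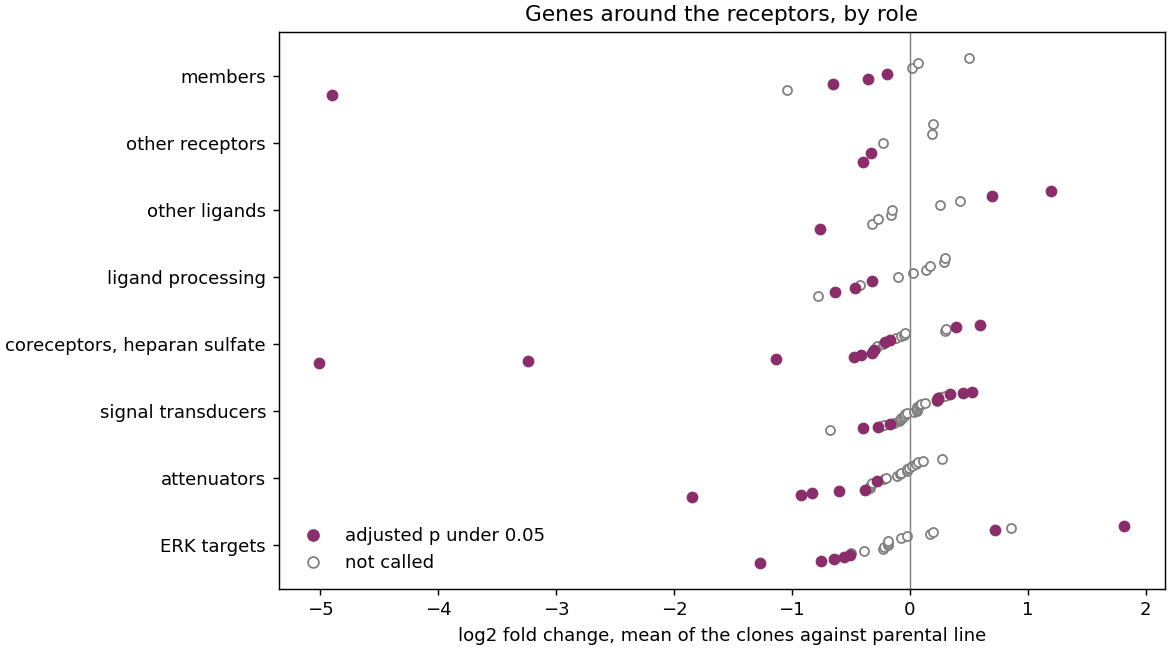
Log2 fold change in the mean over clones against the Parental line (horizontal axis) for each tested gene of the members and of 7 lists by role, 1 point per gene; filled points had an adjusted p under 0.05. Egfr at -4.90 is the lowest member, and the members, other receptors, ligand processing genes and attenuators have filled points on the lower side only.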

How the data were processed

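Per the labels' protocols, total RNA was depleted of ribosomal RNA, made into stranded libraries and sequenced from both ends. Estimated counts per gene were deposited by the authors, with a table of the same 48795 genes in TPM; each TPM column summed to 1000000. Rounding made the counts whole for the tests (86.9% of those over 0.5 were already whole to within 0.01). The build is GRCm38 per the submitters' processing notes; no source used here names the aligner or counter. GENCODE M21 gave symbols to 48435 identifiers.

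Genes were kept by edgeR's filterByExpr, and tested with its quasi-likelihood F-test (TMM factors, 4 groups, 12 libraries, 8 residual degrees of freedom). Adjustment was made over 14704 genes by the Benjamini-Hochberg method, with calls under 0.05. Adjusted p-values without a named tool are edgeR's, standard errors come from the F statistic, and the biological coefficient of variation was 15.5%. CPM use the TMM totals. Limits of 3 counts cover counting error only. The scripts were tested on simulated counts. Tools were edgeR 4.0.16, DESeq2 1.42.0 and limma 3.58.1 in R 4.3.3, beside Python 3.11.15. Same-numbered passages of 2 clones deviated together (correlations of 0.153 to 0.501, over 0.1 in 9 of 9 pairs), so by this check from the data the numbers pair the libraries between clones, and not with the Parental line (-0.526 to -0.187 in 6 pairs). Libraries at the same place in the order of passages had correlations over 0.1 in 16 of 18 pairs (second passages 0.337 to 0.503).

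Named genes are the members, Aebp1, and per list up to 3 called higher and 3 lower in the mean of the clones by smallest adjusted p, with at least 1 CPM. Plek, Grb10, Gm12002, Sec61g, Cdh1, Eldr, the antisense genes, Fgfr3, Fgfr4, Tgfa, Areg, Hbegf and Ereg were named after their values were seen. The members and lists were chosen with earlier results of these data known. Alternatives were other normalisation, no filter, DESeq2, limma on log2 TPM, passage terms, leaving out libraries, pooled clones and counts summed per line.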

Additional observations from a re-analysis of the deposited data

Results flagged for a closer look

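Differences between clones were tested directly, and 4 passed the threshold of edgeR's quasi-likelihood test. Fgfr2 was higher in F5 than in H7 by 0.46 on the log2 scale and higher in G5 than in H7 by 0.71. Egfr was lower in G5 than in H7, at -3.29. Met was higher in F5 than in H7 by 0.34, beside a median of 0.28 over the tested genes of its chromosome. Of all tested genes 17.9% were called in F5 against H7 and 17.4% in G5 against H7, so 2 of 8 members in each pair is near that share. The Met call was lost in 10 and the Egfr call in 5 of the 12 fits that left out 1 library.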

How the results depend on the processing

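Over 1184 recomputed values of the members in the 7 comparisons, 1065 kept their direction and their side of the threshold, 45 lost a call, 46 gained one, 28 changed sign without a call in either fit, and 0 changed sign with a call. The cause was not tested, except that fewer libraries and degrees of freedom are part of some alternatives.

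For the mean of the clones, 4 members were called. With no filter on low counts 2 were called, with the 9 knockout libraries as 1 group 2, and without the second passage of every line 2. Pdgfrb and Fgfr2 were the members lost in each of these fits. All-gene calls in them were 2507, 1356 and 2198, in that order, against 2800. With counts summed per line, where the 3 clones are the only replicates, 0 members and 0 of all tested genes were called. With the place in the order of passages as a term, 6 members were called in the mean of the clones, 5 in F5 against Parental and 5 in G5, 4 in H7 against Parental, and 4 each in F5 against H7 and G5 against H7, where the main counts were 2. Calls over all 14704 genes grew in the same fits, to 4908 against 2800 for the mean of the clones, 4226 against 2096 in F5, 3948 against 1926 in G5, 4808 against 2877 in H7, 4603 against 2638 for F5 against H7, 4356 against 2557 for G5 against H7, and 82 against 38 for F5 against G5. DESeq2 called 4 in F5 against Parental and 1 in F5 against G5 (0 by edgeR), with all-gene calls of 2713 and 102. With only the 6 libraries compared, 1 was called in F5 and 1 in G5 against Parental and 4 in G5 against H7. All-gene calls in these were 764, 569 and 2927. F5 against H7 had 1 without the filter (2301 over all genes), and G5 against H7 had 4 without the second passages (2828 over all genes).

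Leaving out 1 library at a time gave 3 to 5 called members for the mean of the clones, 1 to 4 for F5 against Parental, 2 to 4 for G5 against Parental, 2 to 4 for H7 against Parental, 0 throughout for F5 against G5, 1 to 4 for F5 against H7 and 1 to 4 for G5 against H7. All-gene calls moved in the same fits: 2088 to 2730 for the mean of the clones, 1227 to 2127 for F5, 1120 to 2046 for G5 and 1816 to 2800 for H7 against Parental. They ran from 21 to 55 for F5 against G5, 1772 to 3624 for F5 against H7 and 1779 to 3443 for G5 against H7. The count of 4 members came without the Parental library of passage 6 in F5 and in G5 against Parental, without that of passage 8 in H7 against Parental, and without that of passage 7 in both comparisons with H7. Removing a line from the comparison of the second passages gave 2 to 4 members, where 3 were called. All-gene calls there were 2380 to 4321, where 4722 were called.

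Clones and Parental line share passage numbers 7 and 8. Same-numbered libraries deviated together between clones and not between a clone and the Parental line. With the passage number as a replicate block, 3 members were called in the mean of the clones, Pdgfrb being lost (adjusted p = 0.0587), 3 in G5 against H7, where Met was gained (0.0463), 2 in each clone against Parental, 2 in F5 against H7 and 0 in F5 against G5. All-gene calls moved by over 1.5 times in F5 against G5 alone (21, against 38 without the block), and no other call of a member changed. Depth limits Pdgfb in all lines and Egfr in G5.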
